A study of Homo sapiens with 6 samples.

Results

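The genes that build serine and asparagine and carry single carbon units on folate were examined in 12Z cells, an immortalized epithelial cell line derived from endometriosis. They were the 10 genes PHGDH, PSAT1, PSPH, ASNS, SHMT1, SHMT2, MTHFD1, MTHFD2, MTHFD1L and ALDH1L2, chosen by symbol from the 60660 genes of the count tables. RNA-sequencing compared 3 control libraries, whose cells had received a siRNA without a target, with 3 knockdown libraries, whose cells had received siRNA LINC01133a against the long noncoding RNA LINC01133 at 10 nM. Both groups received the same lipid transfection reagent and were lysed after 72 h. Only siRNA LINC01133a was sequenced, so loss of LINC01133 and any other effect of this siRNA cannot be told apart. The study's text calls the replicates biological, but the labels name no separate cultures, so p-values measure the spread between these libraries.

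Serine is made from the glycolytic intermediate 3-phosphoglycerate by PHGDH, PSAT1 and PSPH in turn. Serine hydroxymethyltransferase then moves a carbon from serine to tetrahydrofolate, a reaction that SHMT2 carries out mainly in mitochondria and SHMT1 in the cytosol. In mitochondria, MTHFD2 and MTHFD1L convert the folate-bound carbon to formate, which leaves for the cytosol, where MTHFD1 returns it to folate for the synthesis of purines and thymidylate. Many of these genes, and ASNS, are known targets of ATF4, a transcription factor whose translation rises when amino acids are scarce or mitochondria are impaired.

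The strands of siRNA LINC01133a are shown because its seed, positions 2 to 8 in capitals, can also pair with other transcripts.
guide: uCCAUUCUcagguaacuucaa
passenger: gAAGUUACcugagaauggatt
The guide seed match, AGAATGG, was in none of the 3′ UTRs of the 10 genes, each taken from the canonical transcript, whereas 15% of the 19559 canonical 3′ UTRs held it. The passenger seed match, GTAACTT, occurred once each in those of PSAT1 and ALDH1L2, and in 11.4% of all. These matches are a description of the sequences, and pairing was not measured.

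The libraries held 29703111 to 34761062 counts on genes in control and 27742562 to 37551194 in knockdown cells, and 15155 genes passed the filter on low counts. LINC01133 stood at 25.1, 25.3 and 25.9 CPM (the count scaled to a common library size, with TMM factors) in control and at 4.01, 4.05 and 4.28 in knockdown replicates 1 to 3, a log2 fold change of -2.63 (standard error, SE, 0.070, adjusted p = 3.45e-11 by the quasi-likelihood test in edgeR, adjusted after Benjamini and Hochberg). Adjusted p-values below come from the same fit, and log2 fold changes are knockdown against control. Sums of marker CPM below were scaled by library size alone, and sums with TMM factors were not computed. The TMM factors, 0.968 to 0.984 in control and 1.02 to 1.03 in knockdown libraries, would raise the control sums and lower the knockdown sums. Of 6 epithelial markers, 5 were lower in knockdown cells. The summed CPM of the 6 went from between 6070 and 6406 to between 4058 and 4208. Of all genes tested, 25.0% fell, a share to set beside this count and that of the stromal markers. The study's own follow-up did not bear out the lower KRT7 and KRT19. EPCAM, a defining epithelial marker, stayed between 0.288 and 0.681 CPM in all libraries. Of 4 stromal markers, 3 fell (PDGFRB, THY1 and DCN) and COL1A1, which made up most of their sum, did not pass the test, with sums of 3057 to 3457 CPM in control and 3044 to 3122 in knockdown cells. Leukocyte markers (3 genes) summed to at most 0.865 CPM with CD3E at 0. Of the canonical transcript of CD68, another of them, 94.9% is shared on the same strand with another gene, so its count covers little of it. Endothelial markers (3 genes) went from between 2.42 and 2.79 CPM in sum to between 5.59 and 6.91, mostly through CDH5. CDH5 rose by 1.45 on the log2 scale (adjusted p = 1.4e-06), from a mean of 1.96 CPM to 5.38. VWF did not pass the test (adjusted p = 0.331). PECAM1 did not pass the filter, with 0 to 3 counts per library and a lower mean in knockdown cells. The part of these shifts in the results below was not tested. In such bulk RNA, fewer cells of a type and less RNA per cell cannot be told apart.

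All 10 genes passed the filter. Of these, 7 rose (70%) and 2 fell in knockdown cells, and SHMT1 did not pass the test, at an adjusted p under 0.05. Among all genes tested, 23.3% rose and 25.0% fell. With a fold change over 1.5 as well, the study's cutoff for differential expression (DE), 4 of the 10 (40%) were higher, namely PSAT1, MTHFD2, ALDH1L2 and ASNS, and none was lower, against 5.30% higher and 6.43% lower among all genes. DESeq2 also called 4 higher and none lower, and the 2 genes that fell had fold changes under 1.5. The groups did not overlap for 9 of the 10 genes and for 57.3% of all genes. The median log2 fold change was 0.45, beside 0.0032 over all genes. The count for ASNS rests on very few reads, for the reason given with its values, and it passed the filter only through the knockdown libraries. Its rise, DE call and lack of overlap were thus favoured by the filter. Without ASNS, 6 of 9 rose, 2 fell and 3 were DE.

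**Figure D1:**
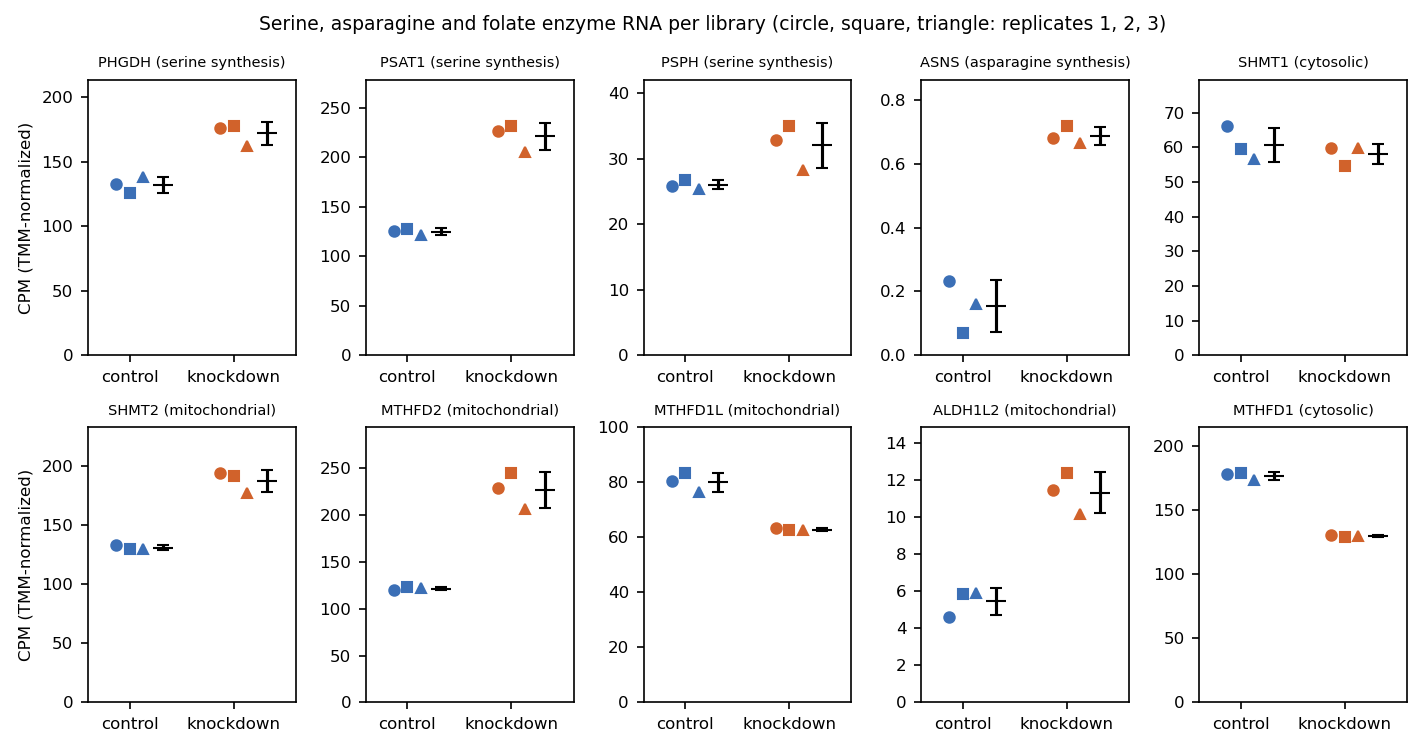
Normalized CPM (vertical axis, from 0) of each of the 10 enzymes in the control and knockdown libraries, with mean and SD as bars beside the points. PSAT1 and MTHFD2 lie near 125 and 122 CPM in control and 221 and 227 in knockdown cells, MTHFD1 and MTHFD1L lie lower in knockdown cells, and the groups overlap for SHMT1.

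All 3 enzymes of serine synthesis rose, by 1.30-fold for PHGDH, 1.77-fold for PSAT1 and 1.24-fold for PSPH. PHGDH (chromosome 1, 119648411 to 119744218 of GRCh38, plus strand) oxidizes 3-phosphoglycerate and opens the pathway. Its CPM was 133, 126 and 138 in control and 176, 178 and 162 in knockdown replicates 1 to 3. Every knockdown library was above every control library, and the log2 fold change was 0.38 (SE 0.047, adjusted p = 1.99e-05), under the DE cutoff. PSAT1 (chromosome 9, 78297125 to 78330093, plus strand) transfers the amino group from glutamate. It went from 125, 128 and 121 CPM to 226, 232 and 206. The means were 124.7 ± 3.31 and 221 ± 13.7 (SD, n = 3 each), and the log2 fold change was 0.83 (SE 0.047, adjusted p = 1.8e-08), above that of 97.4% of the genes tested. PSPH (chromosome 7, 56011051 to 56051604, minus strand) removes the phosphate in the last step. It was measured at 25.9, 26.8 and 25.4 CPM in control and at 32.8, 35.0 and 28.3 in knockdown cells. The groups were apart, with knockdown replicate 3 close to the control libraries, and the log2 fold change was 0.30 (SE 0.069, adjusted p = 0.00253).

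The balance within the pathway was compared within each library. This comparison was chosen after the values were seen and carries no test. The log2 ratio of PSAT1 to PHGDH was -0.084 ± 0.11 in control and 0.36 ± 0.018 in knockdown cells (SD, n = 3), and that of PSAT1 to PSPH was 2.26 ± 0.012 and 2.79 ± 0.068. In both ratios the 3 knockdown libraries lay above the 3 control libraries.

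ASNS (chromosome 7, 97851677 to 97872542, minus strand) makes asparagine from aspartate, with glutamine as the nitrogen donor. It received 8, 2 and 5 counts in control and 26, 24 and 19 in knockdown libraries. The groups did not overlap, and the log2 fold change was 2.09 (SE 0.35, adjusted p = 0.000293). Its control counts lay under the filter's minimum of 10 and its knockdown counts above it. ASNS therefore passed the filter only through the group where it was high, which favoured a rise. The test and the lack of overlap lend the rise no support. These counts do not give the level of ASNS. In GENCODE v44, 99.5% of its canonical transcript of 2385 bases, all but 11, is shared on the same strand with a noncoding gene, ENSG00000284707, and STAR assigns a read that lies on 2 genes to neither. That gene received 7, 5 and 4 counts in control and 6, 8 and 5 in knockdown libraries. The count therefore covers only reads that touch ASNS outside the shared exons, and how far they follow its RNA was not tested. None of the other 9 enzymes shares canonical exon sequence with another gene on the same strand.

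The mitochondrial enzymes did not move together, since SHMT2, MTHFD2 and ALDH1L2 rose whereas MTHFD1L fell. SHMT2 (chromosome 12, 57229573 to 57234935, plus strand) stood at 133, 129.8 and 129.6 CPM in control and 194, 191 and 176 in knockdown cells. The control libraries differed by little and all knockdown libraries lay above them, with a log2 fold change of 0.52 (SE 0.042, adjusted p = 4.39e-07). This is 1.43-fold and under the DE cutoff. MTHFD2 (chromosome 2, 74186172 to 74217565, plus strand), the dehydrogenase and cyclohydrolase of the mitochondrial path, rose from 120.2, 123 and 122 CPM to 229, 245 and 206. The means were 122 ± 1.34 and 227 ± 19.6 (SD, n = 3 each), and the log2 fold change of 0.90 (SE 0.053, adjusted p = 2.86e-08) was above that of 98.0% of the genes tested. ALDH1L2 (chromosome 12, 105019784 to 105107643, minus strand) oxidizes formyl-tetrahydrofolate to carbon dioxide with the formation of NADPH. It was low, at 4.62, 5.85 and 5.92 CPM in control and 11.5, 12.4 and 10.2 in knockdown cells, with raw counts from 158 to 438. It rose 2.09-fold, a log2 fold change of 1.06 (SE 0.11, adjusted p = 4.23e-06).

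MTHFD1L (chromosome 6, 150865679 to 151101887, plus strand), the mitochondrial synthetase that releases formate, went the other way. Its CPM was 80.5, 83.4 and 76.5 in control and 63.5, 62.6 and 62.5 in knockdown cells, which is 78.5% of the control level. The knockdown libraries lay within 1 CPM of each other and below all control libraries, and the log2 fold change was -0.35 (SE 0.042, adjusted p = 1.51e-05). The log2 ratio of MTHFD2 to MTHFD1L, 2 consecutive steps, was 0.60 ± 0.062 in control and 1.85 ± 0.12 in knockdown cells (SD, n = 3), a ratio also chosen after the values were seen and given with no test.

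Of the cytosolic enzymes, MTHFD1 fell and SHMT1 did not pass the test. MTHFD1 (chromosome 14, 64388031 to 64463457, plus strand) joins 3 activities in a single protein and receives formate from mitochondria. It went from 178, 179 and 173 CPM to 131, 129 and 129.6, which is 73.4% of the control level. The spread within each group was small beside this difference, and the log2 fold change was -0.45 (SE 0.035, adjusted p = 3.47e-07). SHMT1 (chromosome 17, 18327860 to 18363563, minus strand) was at 66.2, 59.4 and 56.7 CPM in control and at 59.9, 54.6 and 59.7 in knockdown cells. The groups overlapped, and the log2 fold change was -0.067 (SE 0.058, adjusted p = 0.362). Without control replicate 1, its highest library, it was 0.00037, so no direction is given for SHMT1.

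**Figure D2:**
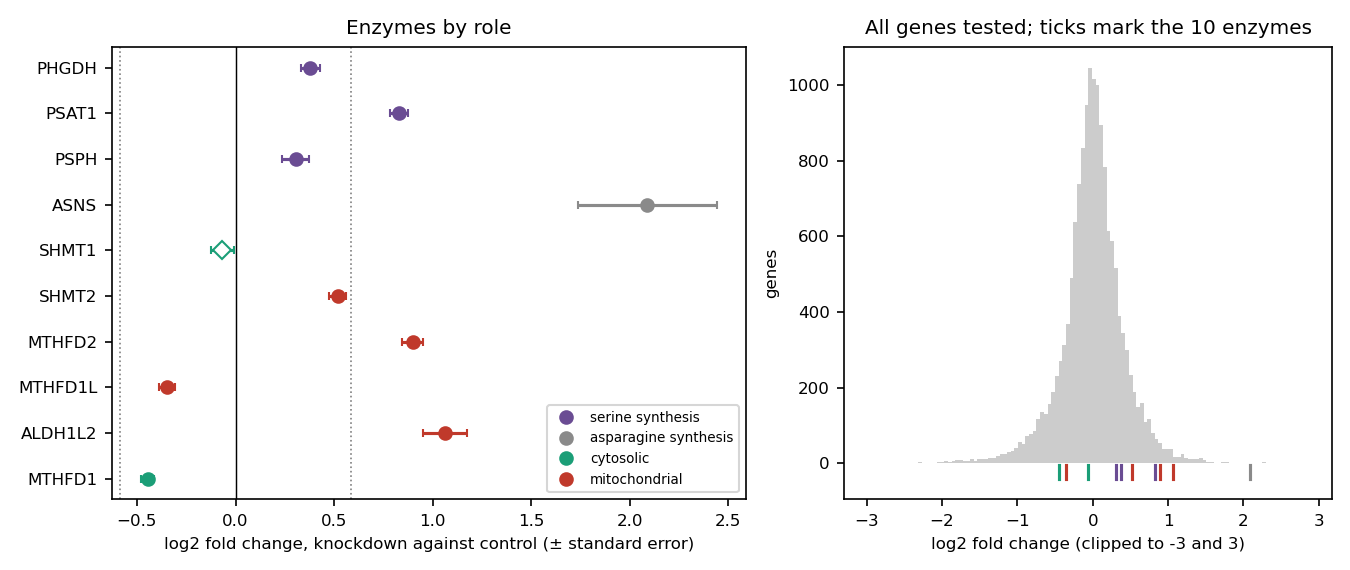
Left, log2 fold change of each enzyme with its standard error, coloured by role, with an open diamond for SHMT1, which did not pass the test, and dotted lines at the fold change cutoff of 1.5. Right, the histogram of all 15155 genes tested, with ticks at the 10 enzymes, 7 of them to the right of 0 beyond the test's threshold and MTHFD1, MTHFD1L and SHMT1 to the left.

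To contrast the compartments, log2 ratios of a mitochondrial to a cytosolic enzyme were formed within each library and compared by an exact permutation test, two-sided. With 3 libraries against 3 the smallest p this test can give is 0.1. All 4 ratios reached that p of 0.1, which is also the adjusted p over the 4, so none could pass a threshold of 0.05. The SHMT2 to SHMT1 log2 ratio was 1.00, 1.13 and 1.19 in control and 1.69, 1.81 and 1.56 in knockdown replicates 1 to 3, with a difference of the means of 0.58 on the log2 scale. The ratio was higher in each knockdown library than in any control library. The log2 ratio of MTHFD2 to MTHFD1, on CPM without regard to length, changed sign. It was -0.57, -0.54 and -0.50 in control and 0.81, 0.93 and 0.67 in knockdown libraries, with means of -0.54 ± 0.032 and 0.80 ± 0.13 (SD, n = 3) and a 2.53-fold difference.

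MTHFD1L and MTHFD1 fell to nearly the same extent. Their log2 ratio was -1.15, -1.10 and -1.18 in control and -1.04, -1.04 and -1.05 in knockdown cells, a difference of 0.098, or 1.07-fold, that still left no overlap. The mean of the 4 mitochondrial against the mean of the 2 cytosolic enzymes moved from -1.01 ± 0.11 to -0.23 ± 0.12 (SD, n = 3), a difference of 0.78. In these means of log2 CPM each enzyme weighs the same. ALDH1L2, at 4.62 to 5.92 CPM in control, therefore lowers the mitochondrial mean, and its log2 fold change of 1.06 was the largest of the 4. The ratio does not give the relative level of the compartments. The ratio of ALDH1L2 to its cytosolic counterpart ALDH1L1 was not formed, because ALDH1L1 had 2 to 7 counts per library and did not pass the filter.

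**Figure D3:**
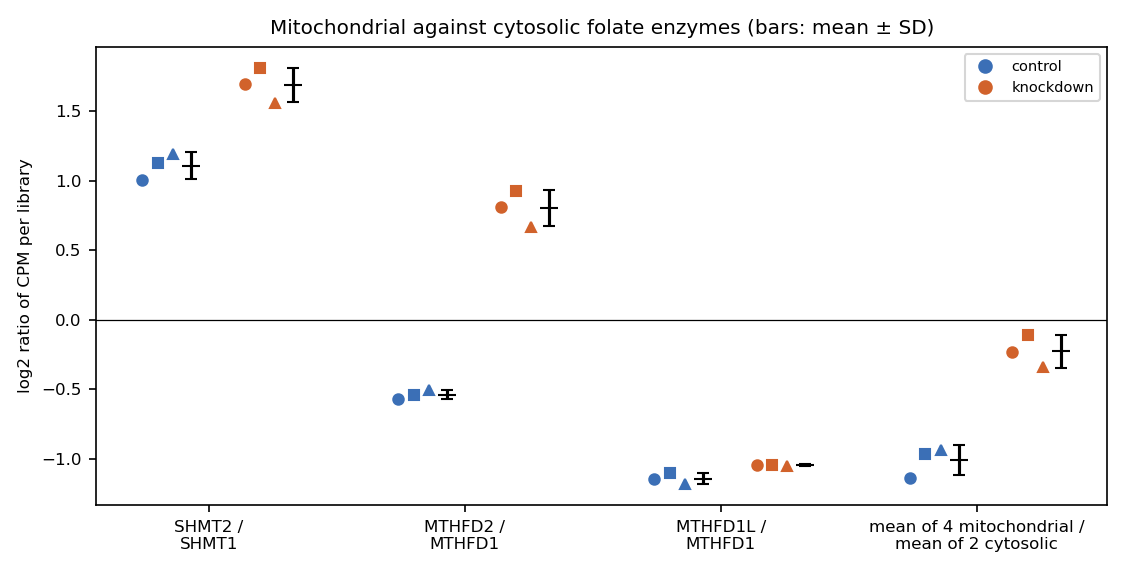
Log2 ratio of CPM in each of the 6 libraries (circle, square and triangle for replicates 1, 2 and 3) for 3 enzyme pairs and for the mean of 4 mitochondrial against 2 cytosolic enzymes, with mean and SD as bars. The MTHFD2 to MTHFD1 ratio crosses 0, from -0.54 to 0.80, whereas the MTHFD1L to MTHFD1 ratio moves by 0.098.

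Levels were compared between genes per length, as CPM per kilobase of the canonical transcript. In control cells PHGDH had 70.9 ± 3.34, SHMT2 60.6 ± 0.82, PSAT1 56.5 ± 1.5 and MTHFD1 56.0 ± 0.98 (SD, n = 3). They were followed by MTHFD2 with 27.6 ± 0.30, SHMT1 with 24.0 ± 1.94, MTHFD1L with 23.2 ± 1.01, PSPH with 13.2 ± 0.36 and ALDH1L2 with 0.74 ± 0.098. The ranges of PSAT1 and MTHFD1 over the control libraries overlapped, as did those of SHMT1 and MTHFD1L. Within each control library PSAT1 was slightly above MTHFD1, whereas SHMT1 and MTHFD1L had no constant order. In knockdown cells PSAT1 had 100.3 ± 6.22, PHGDH 92.2 ± 4.71 and SHMT2 86.8 ± 4.32. The ranges of PSAT1 and PHGDH, and those of PHGDH and SHMT2, overlapped on this scale, although within each knockdown library PSAT1 was above PHGDH and PHGDH above SHMT2. MTHFD2, at 51.5 ± 4.44, was then above MTHFD1, at 41.1 ± 0.30. SHMT1 was at 23.0 ± 1.19, MTHFD1L at 18.2 ± 0.15, PSPH at 16.2 ± 1.74 and ALDH1L2 at 1.53 ± 0.15. ASNS is left out of this order because its count does not give its level. The order depends on the length used, since per kilobase of all annotated exons PSAT1 ranked above the others in both groups and PHGDH ranked 4, and MTHFD2 was above MTHFD1 in control cells already, with ranks 5 and 6.

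Genes of the opposite strand overlap several of these enzymes, and near-copies of them are annotated elsewhere in the genome. The column used held 98.6% to 100% of the stranded counts of each enzyme. Without regard to strand, MTHFD2 kept 60.5%, MTHFD1 76.3% and SHMT2 87.4% of these counts, and 36.8% of the MTHFD2 canonical transcript is overlapped on the other strand, by SLC4A5 among others. The 18 annotated pseudogenes named after the enzymes had at most 2 counts in any library and were not tested. Since only reads mapping to 1 place were counted, reads that fit both an enzyme and a pseudogene were not counted at all.

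The knockdown libraries differed among themselves in a shared way. Knockdown replicate 3 had the lowest CPM of the 3 for 7 of the 7 enzymes that rose, whereas it was the lowest for 33.5% of the 803 genes that were DE and higher. These sets differ in cutoff, since PHGDH, PSPH and SHMT2 rose without being DE. The share among all genes that rose was not computed. For ASNS the order rests on 26, 24 and 19 counts, at 0.681, 0.720 and 0.666 CPM, so it adds little to the 7. Knockdown replicate 3 also had the highest remaining LINC01133, at 4.28 CPM, and the fewest counts, 27742562. The part of these in the pattern was not tested. Without this library the log2 fold change was 0.42 for PHGDH, 0.88 for PSAT1, 0.39 for PSPH, 0.56 for SHMT2, 0.97 for MTHFD2 and 1.13 for ALDH1L2, and each of the 9 genes that had passed the test still did.

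The other genes around these enzymes were counted in 4 lists, to be read beside the 23.3% of all genes tested that rose and the 25.0% that fell, and the 5.30% that were DE and higher and 6.43% DE and lower. Of 27 other folate genes, 22 were tested, 9 rose, 4 fell and 9 did not pass, with a median log2 fold change of 0.031. Those that rose with the highest values were SFXN2, a mitochondrial sideroflexin, at 0.82 (SE 0.096, adjusted p = 1.29e-05), SLC46A1, the proton-coupled folate transporter, at 0.30 (adjusted p = 0.000782), and SFXN3 at 0.27 (adjusted p = 0.000118). SFXN1, which carries serine into mitochondria, rose slightly, by 0.13 (adjusted p = 0.0225), from 154, 164 and 155 CPM to 175, 179 and 163. MTHFD2L, a close relative of MTHFD2, was measured at 8.66, 8.14 and 8.42 CPM in control and 9.74, 9.60 and 11.3 in knockdown cells, giving a log2 fold change of 0.27 (adjusted p = 0.0181). It stayed far below the CPM of MTHFD2.

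The 4 folate genes that fell included SLC19A1, the reduced folate carrier, which went from 45.1, 43.5 and 38.4 CPM to 27.2, 29.5 and 27.3. Its log2 fold change of -0.60 (SE 0.062, adjusted p = 4.23e-06) lay close to the DE cutoff, and its DE call was lost without control replicate 1, control replicate 2, knockdown replicate 1 or knockdown replicate 3, which left 0 DE genes in the list with a lower level. MTRR, the reductase that reactivates methionine synthase, was at -0.31 (adjusted p = 8.62e-05) and methionine synthase itself, MTR, at -0.14 (adjusted p = 0.047), with overlapping groups for MTR. GGH, named after its values were seen, was at -0.13 (adjusted p = 0.0114). TYMS, which makes thymidylate, did not pass the test, at -0.044 (adjusted p = 0.361). SLC25A32, the mitochondrial folate carrier, was at 0.30 (adjusted p = 0.166), but 88.1% of its canonical transcript is shared on the same strand with another annotated gene, so its count covers little of it. ALDH1L1, MTHFS, FTCD, AMT and DMGDH did not pass the filter. Of the canonical transcripts of AMT and MTHFS, 100% and 57.1% are shared on the same strand with other genes, so these counts do not give their levels. Without knockdown replicate 2, 5 of the list rose rather than 9.

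Purine synthesis consumes formyl-tetrahydrofolate at 2 steps, which GART and ATIC catalyse. Of its 6 genes, 1 rose, 3 fell and 2 did not pass, and none was DE with edgeR or DESeq2 (median log2 fold change -0.074). PAICS fell from 494, 519 and 509 CPM to 379, 384 and 371, with a log2 fold change of -0.42 (SE 0.035, adjusted p = 6.08e-07). PPAT, the committed step, fell by 0.18 on the log2 scale (adjusted p = 0.00174) and ATIC by 0.15 (adjusted p = 0.00487). The CPM of GART was 176, 178 and 175 in control and 179, 177 and 173 in knockdown cells (adjusted p = 0.995). ADSL rose, at 0.35 (adjusted p = 0.00122), with 30.6% of its canonical transcript shared on the same strand with another gene. With library size alone as scaling, and likewise without control replicate 1, 2 of the 6 rose.

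Among 13 other genes of serine and asparagine use, 11 were tested, 3 rose, 5 fell and 3 did not pass (median log2 fold change -0.084), and the share that rose was near that of all genes. Those that rose were SDSL, a relative of serine dehydratase, at 0.70 (SE 0.23, adjusted p = 0.0241), SPTLC2, a subunit of serine palmitoyltransferase, at 0.19 (adjusted p = 0.00563), and NARS1, the cytosolic asparaginyl-tRNA synthetase, at 0.14 (adjusted p = 0.00793). SDSL was near 1 CPM in all libraries, and its DE call was lost without control replicate 1, control replicate 3, knockdown replicate 1 or knockdown replicate 2, which left 0 DE genes in the list. ASNSD1, which carries a domain like that of asparagine synthetase, fell by 0.41 on the log2 scale (adjusted p = 9.93e-05), and 49.7% of its canonical transcript is shared with other genes on its strand. ASRGL1, an asparaginase, was at -0.31 (adjusted p = 0.0135) and PTDSS2, which makes phosphatidylserine, at -0.30 (adjusted p = 0.000873). GOT2 and PTDSS1, named after their values were seen, were at -0.17 and -0.15.

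The remaining list held 19 other genes known to respond to amino acid shortage, most of them linked to ATF4. Of these, 11 rose, 5 fell and 3 did not pass, with a median log2 fold change of 0.29, and 5 were DE and higher and 2 DE and lower. CHAC1, which breaks down glutathione, was at 0.88, 0.84 and 0.70 CPM in control and 3.88, 5.13 and 2.45 in knockdown cells, giving a log2 fold change of 2.25 (SE 0.26, adjusted p = 1.32e-05). SESN2, a sestrin that restrains mTORC1, was at 1.00 (adjusted p = 4.17e-06) and SLC7A5, a transporter of large neutral amino acids, at 0.95 (adjusted p = 3.3e-08). ATF3 and NUPR1, named after their values were seen, were also DE and higher, at 0.82 and 0.65, with overlapping groups for NUPR1. TRIB3, a pseudokinase that restrains ATF4, rose by 0.51 (adjusted p = 2.32e-05).

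ATF4 itself was at 207, 198 and 193 CPM in control and 229, 235 and 206 in knockdown cells. The log2 fold change was 0.16 (SE 0.049, adjusted p = 0.014), and knockdown replicate 3 lay within the control range. DDIT3 did not pass the test, at 0.30 (adjusted p = 0.0712). Against the direction of most of the list, XPOT, the exporter of tRNA from the nucleus, fell by 0.78 (adjusted p = 6.15e-09), CEBPB, a transcription factor, by 0.73 (adjusted p = 4.02e-05) and DDIT4, an inhibitor of mTORC1, by 0.55 (adjusted p = 0.000116) on the log2 scale. CTH and VLDLR, named after their values were seen, were at -0.53 and -0.17. The 2 DE and lower genes became 1 without control replicate 1 and 4 without control replicate 3. Knockdown replicate 3 was the lowest knockdown library for 10 of the 11 genes of this list that rose, and the like share among all genes that rose was not computed.

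**Figure D4:**
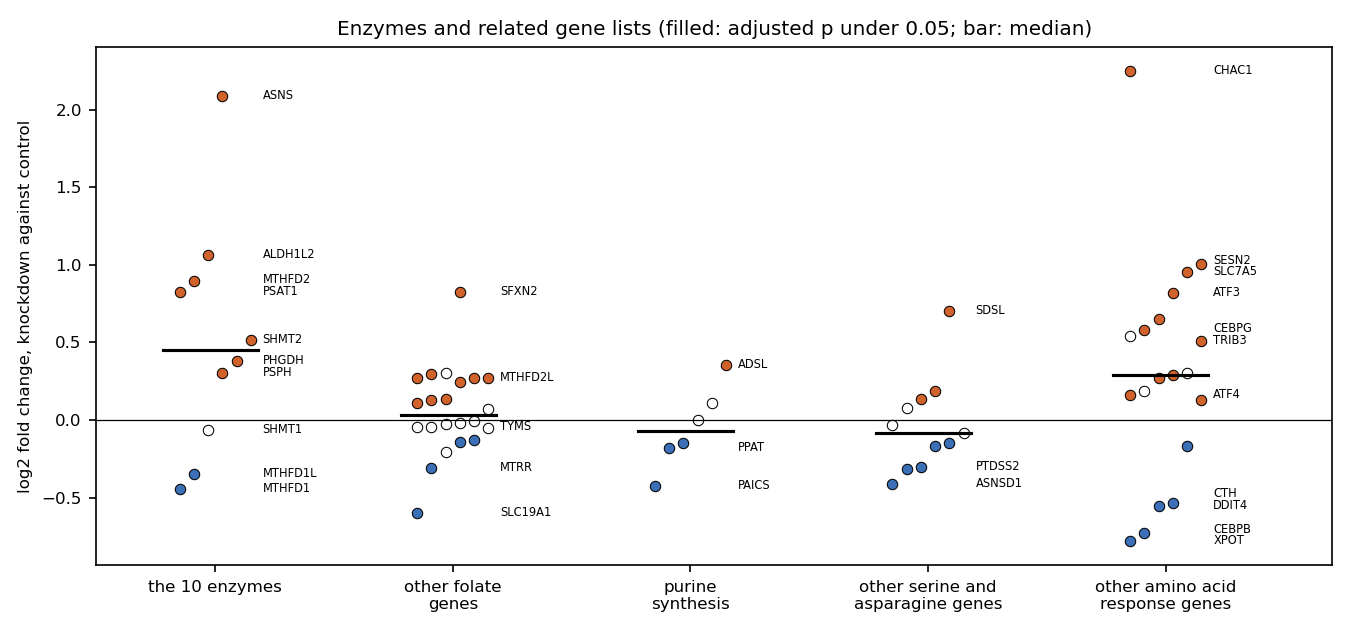
Log2 fold change of the 10 enzymes and of the tested genes of 4 related lists, filled where the adjusted p was under 0.05 (orange higher, blue lower) and open where not, with a bar at each median. The medians are 0.45 for the enzymes, 0.031, -0.074 and -0.084 for the folate, purine and serine and asparagine lists, and 0.29 for the amino acid response genes.

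Likeness was measured as the Euclidean distance of log2 CPM, centred for each gene, over the 6 libraries and 11179 genes with a mean count of at least 100. The genes nearest to PSAT1 were LZTS3 at 0.064, ARHGEF2 at 0.074 and ATF3 at 0.079, with log2 fold changes of 0.85, 0.84 and 0.82. Nearest to MTHFD2 were ATP6V1D at 0.099, PSAT1 at 0.12 and LZTS3 at 0.12. SHMT1 was nearest to ZNF248 at 0.051, CTIF at 0.063 and MAP3K14 at 0.075, none of which passed the test. ASNS was too low to be compared in this way.

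The promoters were searched for the core of the amino acid response element, TGATGNAA, on both strands, as the element at which ATF4 and its partners are known to bind. A promoter here is the stretch from 250 bases before to 50 bases after a start listed by RefSeq (GRCh38.p14), and 7 of the 10 genes matched an entry. MTHFD1L had 4 entries, ASNS 2 and each other matched gene 1, so the shares of promoters below are not shares of genes. The core was found for ASNS and MTHFD1L, in a set where 3.62% of 35116 promoters held it. Both are shown because 1 belongs to an enzyme that rose in its few counts and 1 to an enzyme that fell, with the core in capitals.
ASNS, chr7:97872459-97872486, minus strand: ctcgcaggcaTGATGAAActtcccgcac
MTHFD1L, chr6:150866347-150866374, plus strand: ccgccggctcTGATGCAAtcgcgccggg
The ASNS match starts 68 bases before a listed gene start. The MTHFD1L match is 1 genomic position seen from 3 listed starts, 129 and 90 bases before and 24 bases after them, and it also matches the longer letters TGATGCAAT, which 0.236% of promoters held. The E-box CACGTG was found in the promoters of MTHFD1 and MTHFD1L, the 2 enzymes that fell, and in 7.26% of all promoters. PSPH, SHMT2 and ALDH1L2, which rose, had no entry and were not searched. A link between a motif and the direction of change was therefore not tested. No core was found for PHGDH, PSAT1, SHMT1, MTHFD1 and MTHFD2, which says only that these letters are not in this window. A match is a description of the sequence, and no binding was measured in these cells.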

How the data were processed

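RNA-sequencing of 12Z cells was analysed, with 3 control and 3 LINC01133a knockdown libraries grouped by their labels. Per the study's methods, poly-A RNA was sequenced as paired reads on a single lane, and the kit differs between the methods (TruSeq) and the labels (NEB). The authors aligned the reads with STAR 2.7.6a to GRCh38.p13 with GENCODE v36, keeping reads with a single place, and deposited raw counts per gene (SAMtools 1.10 is also named in the submitters' processing notes). The counts of the strand opposite to read 1 were used, since they held nearly all stranded counts of the enzymes.

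Genes were filtered with filterByExpr (minimum count 10), scaled by TMM and compared in edgeR 4.0.16 under R 4.3.3 by its quasi-likelihood test. The model held the group alone, and p-values of all 15155 genes were adjusted after Benjamini and Hochberg. The cutoffs were an adjusted p of 0.05 and, for DE, a fold change of 1.5. Standard errors (SE) are the log2 fold change divided by the root of F. The common biological coefficient of variation was 0.0439, and the precision of a value is its SD or SE, from 3 libraries a group. Ratios within a library were taken on log2 CPM (prior count 2) and compared by an exact permutation test. Gene coordinates, lengths, 3′ UTRs and shared exons were taken from GENCODE v44, and promoters from RefSeq on GRCh38.p14, since v36 was not used here. The fit was tested on simulated data.

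The enzymes and lists were chosen with earlier results of these data known. The named genes were the enzymes, LINC01133, the 3 highest and 3 lowest of each list among those that passed the test, MTHFD2L, ALDH1L1, TYMS, SLC25A32, SFXN1, GART, ATIC, PPAT, ASNSD1, ATF4, DDIT3 and TRIB3 in any case, and the 3 genes most like PSAT1, ASNS, MTHFD2 and SHMT1, except where stated. A gene of the rule is not reported here. Alternatives were DESeq2 1.42.0, scaling by median-of-ratios factors or by library size alone, all genes without a filter or those with 10 or more counts in each library, the column without strand, a prior count of 0.5, a block for the replicate number, glmTreat of edgeR with the 1.5-fold cutoff, and fits that left out a library.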

Additional observations from a re-analysis of the deposited data

How the results depend on the processing

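Under the alternatives, 128 of 129 fold changes of the enzymes kept their direction and their side of the threshold. The exception was SHMT1, which did not pass the test in any setting and whose log2 fold change was 0.00037 without control replicate 1, in a range from -0.11 to 0.00037 with each library left out in turn. Of the 10 enzymes, 9 passed the test and 4 were DE in the settings tried, with these exceptions. With at least 10 counts required in every library ASNS was not tested, which left 8 and 3. With glmTreat, which joins the test and the fold cutoff, 4 passed. Library size alone moved the median log2 fold change of all genes from 0.0032 to 0.065, and on that scale PHGDH was at 0.44, PSAT1 at 0.89, SHMT2 at 0.58, MTHFD2 at 0.96, MTHFD1 at -0.38 and MTHFD1L at -0.29. Over all genes, 1778 were DE at the cutoffs and 578 with glmTreat, which tests against the 1.5-fold cutoff itself.

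The replicate numbers of the labels were not found to pair the libraries, since the deviations of libraries with the same number correlated at -0.015, 0.0049 and 0.057. With the replicate number as a block, 9 of the enzymes passed the test and 4 were DE. For the ratios, the signs of the differences within each replicate number were flipped in all ways, two-sided. The exact p of this test was 0.25 for all 4 ratios, which is the smallest that it can give. The fold changes ranged from 0.80 to 0.89 for PSAT1, 0.84 to 0.97 for MTHFD2, 0.95 to 1.13 for ALDH1L2 and 1.77 to 2.52 for ASNS on the log2 scale. With library size alone, 2 rather than 4 of the other folate genes fell and none was DE and lower, and with DESeq2 SDSL was not DE. The cause of these changes was not tested. Few counts per library limited ALDH1L1 and SDSL, and also ASNS and SLC25A32, whose exons are largely shared with another gene on the same strand. Counts per gene do not separate transcripts, and protein levels were not measured here.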
